A study of Mus musculus with 40 samples.

Results

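RNA from 4 libraries of neutrophils sorted from mouse colon tumors was compared with RNA from 4 libraries of neutrophils sorted from the blood of tumor-bearing mice, 8 of the 40 libraries of the study, chosen by their sample labels. All 8 libraries came from mice labelled Cdx2CreERT2 - Apc fl/fl on a C57Bl6/Sv background, in which Tamoxifen at 25 mg/kg had activated Cre at 8 to 10 weeks of age. The Cdx2 promoter drives a tamoxifen-dependent Cre recombinase in the intestinal epithelium, mainly of the colon, and Cre then deletes both copies of Apc, a brake of Wnt signaling, so that adenomas form from epithelial cells. Neutrophils of both sources therefore carried the same alleles and had been exposed to the same agent, and no library of neutrophils from healthy colon was used here. Tumor neutrophils were gated as CD45+ CD11b+ MHCII- Ly6G+ Ly6C low cells after the tissue had been digested with enzymes, whereas blood neutrophils were sorted after lysis of red cells, so the site of the cells and the handling of the tissue cannot be told apart. Blood replicate 3 carries 2 animal numbers in its title, and tumor replicate 4 and blood replicate 2 share animal number 5. The other libraries carry an animal number of their own.

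Neutrophils are short-lived granulocytes that leave the bone marrow with their granule proteins already made and circulate at rest. On entering inflamed tissue or a tumor they meet microbial products, cytokines, low oxygen and lipid mediators, and they can then transcribe chemokines, cytokines and survival genes through transcription factors such as NF-kB. In tumors they are known to affect T cells, vessels and matrix, through ligands of inhibitory receptors, enzymes and proteases.

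Levels are given as RPKM, reads per kilobase of transcript scaled by the reads of the library, which corrects for gene length. The 4 values of a group are always listed in the order of replicates 1 to 4. On a log2 scale, RPKM departed from the library scaling of the test below (TMM) by 0.34 in tumor replicate 1 and -0.61 in tumor replicate 2. The other libraries departed by 0.12 or less in size. Where the levels of libraries are ranked or called even, this is in RPKM. A gene was called higher or lower when edgeR's quasi-likelihood test on counts gave a p-value under 0.05 after Benjamini-Hochberg adjustment and the log2 fold change, tumor over blood, exceeded 1.5 in size. Over the 13674 genes tested, 11.9% were called higher and 4.41% lower in tumor neutrophils, or 16.3% in either direction, and the median log2 fold change was 0.11. These were 1626 genes higher and 603 lower, whereas limma-voom called 1367 higher and 886 lower. These shares are the background for every count of list members that follows. In RPKM, 27.4% of the genes tested had no overlap between the 4 tumor and the 4 blood values, for which a two-sided exact permutation test gives p = 0.0286, the smallest that 4 against 4 libraries allow. The p-values measure the spread between these libraries, each made once, of which tumor replicate 4 and blood replicate 2 carry the same animal number.

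The marker genes of neutrophils were present in all 8 libraries. Of 16 markers tested, 2 were called higher, 0 lower, and the median log2 fold change of the 16 was -0.50. The count called higher was 0 without blood replicate 2 or 4 and with a replicate block. DESeq2 called 3 higher and 2 lower. In RPKM, 7 of the 16 had no overlap between the groups, against 27.4% of all genes tested. Csf3r, the receptor of the growth factor G-CSF, was at 51.6, 192, 182 and 201 RPKM in tumor and 173, 218, 300.3 and 228 RPKM in blood. Itgam, the CD11b chain on which the cells were gated, was at 31.1, 80.5, 146 and 156 RPKM in tumor and 144, 123, 109.8 and 128 RPKM in blood. Tumor replicate 1 had the lowest level of both, and the other tumor libraries lay within or beside the range in blood. Ly6g, the other gating marker, was at 1.18, 12.6, 9.65 and 11.6 RPKM in tumor and 38.6, 39.3, 13.9 and 22.3 RPKM in blood, so the groups did not overlap but the gene did not pass the test (edgeR adjusted p = 0.172). Summed over the 16 markers, the level was 2173, 7083, 13838 and 13240 RPKM in the tumor libraries and 19694, 20030, 21677 and 16280 RPKM in the blood libraries, lowest in tumor replicate 1. In whole sorted populations, fewer cells of a type and less RNA per cell cannot be told apart.

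Transcripts of other cell types moved with the comparison. Summed over 20 epithelial markers, the level was 236, 59.4, 50.2 and 17.2 RPKM in tumor replicates 1 to 4, against 0.732 to 1.87 RPKM in blood, and 12 of the 14 epithelial markers tested were called higher, 12 of 14 without tumor replicate 1. The tumor sums were 5.06% to 69.5% of that in epithelial cells sorted from the same kind of tumors, which makes tumor replicate 1 the library richest in epithelial transcripts and replicate 4 the poorest. Epcam, a surface protein of epithelial cells, was at 33.9, 5.91, 8.94 and 2.598 RPKM in the tumor libraries and at most 0.0270 RPKM in blood. Platelet markers ran the other way, with 3 of 9 called lower and sums of 3.11, 0.645, 1.43 and 1.51 RPKM in tumor and 4.46, 26.4, 43.6 and 44.5 RPKM in blood. Erythroid markers, whose sums were 129.9, 27.02, 11.6 and 5.97 RPKM in tumor and 9.63, 84.2, 1068 and 791 RPKM in blood, had no member called by edgeR in either direction (5 of 7 by DESeq2, 0 by limma-voom, and 5 with an unadjusted p under 0.05 in edgeR) and differed most among the blood libraries. Monocyte markers, summing to 19.2, 2.19, 4.197 and 4.28 RPKM in tumor and 2.82 to 4.01 RPKM in blood, were highest in tumor replicate 1, where Fn1, fibronectin, was at 9.45 RPKM, and 2 of 7 tested were called higher. Fibroblast markers had 3 of 8 called higher, the collagen genes Col1a1, Col1a2 and Col3a1, with sums of 2.26, 5.05, 1.92 and 4.32 RPKM in tumor and 0.976, 1.21, 0.392 and 0.356 RPKM in blood. Endothelial markers had 2 of 5 called higher, Cdh5 and Sox17, with sums of 8.57, 0.339, 3.79 and 2.996 RPKM in tumor and 0.194, 0.397, 0.0875 and 0.166 RPKM in blood. Lymphocyte and eosinophil or mast cell markers had 2 and 1 members tested, none called by edgeR, limma-voom or DESeq2 or with an unadjusted p under 0.05 in edgeR. The part of these cells in the results was not tested.

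**Figure D1:**
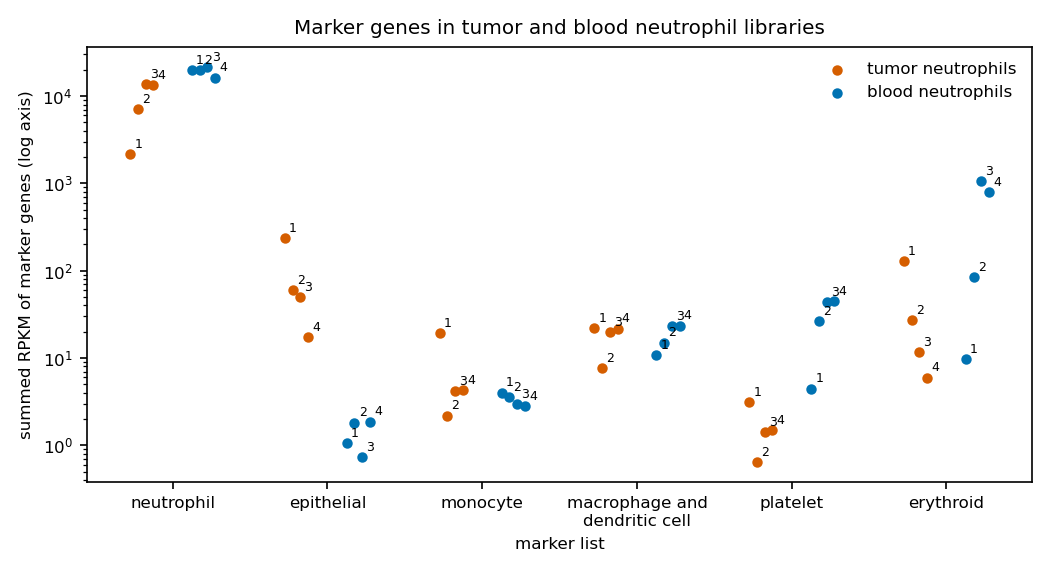
Summed RPKM of marker genes in each tumor (orange) and blood (blue) neutrophil library, for 6 marker lists, on a log axis; numbers beside the points are replicates. Epithelial sums lie between 17.2 and 236.2 RPKM in tumor and at most 1.87 RPKM in blood, while neutrophil sums reach 2173 RPKM or more in every library.

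Tumor replicate 2 stood apart in another way: 9641 genes reached 10 counts there, against 14112 to 16786 in the other tumor libraries and 11422 to 13554 in blood. Totals of 11943269 to 17980197 counts per library show that the depth was close to even. Each comparison below was therefore also run without tumor replicate 1, where 10.0% of the genes tested were called higher and 3.75% lower, and without tumor replicates 1 and 2, where 14.2% and 5.96% were, or 20.1% in either direction. The last of these fits was chosen after seeing the data. Of the 167 called genes named in the text, 131 were called in each of the 8 fits that left out 1 library, and the other 36 are listed with the limits.

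The rises were set against the levels of sorted tumor epithelial cells. Of the 1626 genes called higher, 1063, or 65.4%, had a mean RPKM in tumor neutrophils below that in tumor epithelial cells, and 563 had a mean above it. The highest tumor RPKM was in replicate 1 for 951 of the 1626 genes and in replicate 2 for 396. Without tumor replicate 1, 1323 of the 1626 were called higher again, and without replicates 1 and 2, 1344 were. How far the epithelial transcripts account for a rise was not tested, and the epithelial level is given beside the lists it touches.

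The pathway lists differed in their shares of called members. They share members, with 60 symbols in more than 1 list, so their counts are not separate results. The lists were also chosen with earlier results of these data known, so a high share is not independent evidence. NF-kB, with 20 of 27 members tested called higher, and chemokine ligands, with 8 of 14, had shares far above the 11.9% of all genes. So did genes known from tumor neutrophils, with 17 of 24, other cytokines, with 12 of 22, and hypoxia, with 11 of 22. The count for genes known from tumor neutrophils was 13 of 24 without blood replicate 1 and 12 of 24 without blood replicate 2. High shares were also those of mitochondrial protein-coding genes, 13 of 13, and class II MHC and costimulatory genes, 5 of 7. Heat shock, with 11 of 19, and immediate early genes, with 17 of 32, had high shares too. Of the called members of these lists, in that order, 13, 0, 10 and 9 had a mean below that of tumor epithelial cells. Below that of sorted tumor monocytes were 4, 4, 9 and 9. Class I MHC, with 0 of 16, interferon response, with 1 of 32, nuclear genes of oxidative phosphorylation, with 2 of 37, and chemoattractant receptors, with 2 of 19, had shares near or below 11.9%. Among the larger shares called lower, against 4.41% of all genes, were those of secondary and tertiary granule proteins, 5 of 20, and primary granule proteins, 2 of 5. Oxidase and trap genes had 2 of 10 called lower and eicosanoid genes 3 of 20. Cybb is counted both among the secondary and tertiary granule proteins and in the oxidase list.

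**Figure D2:**
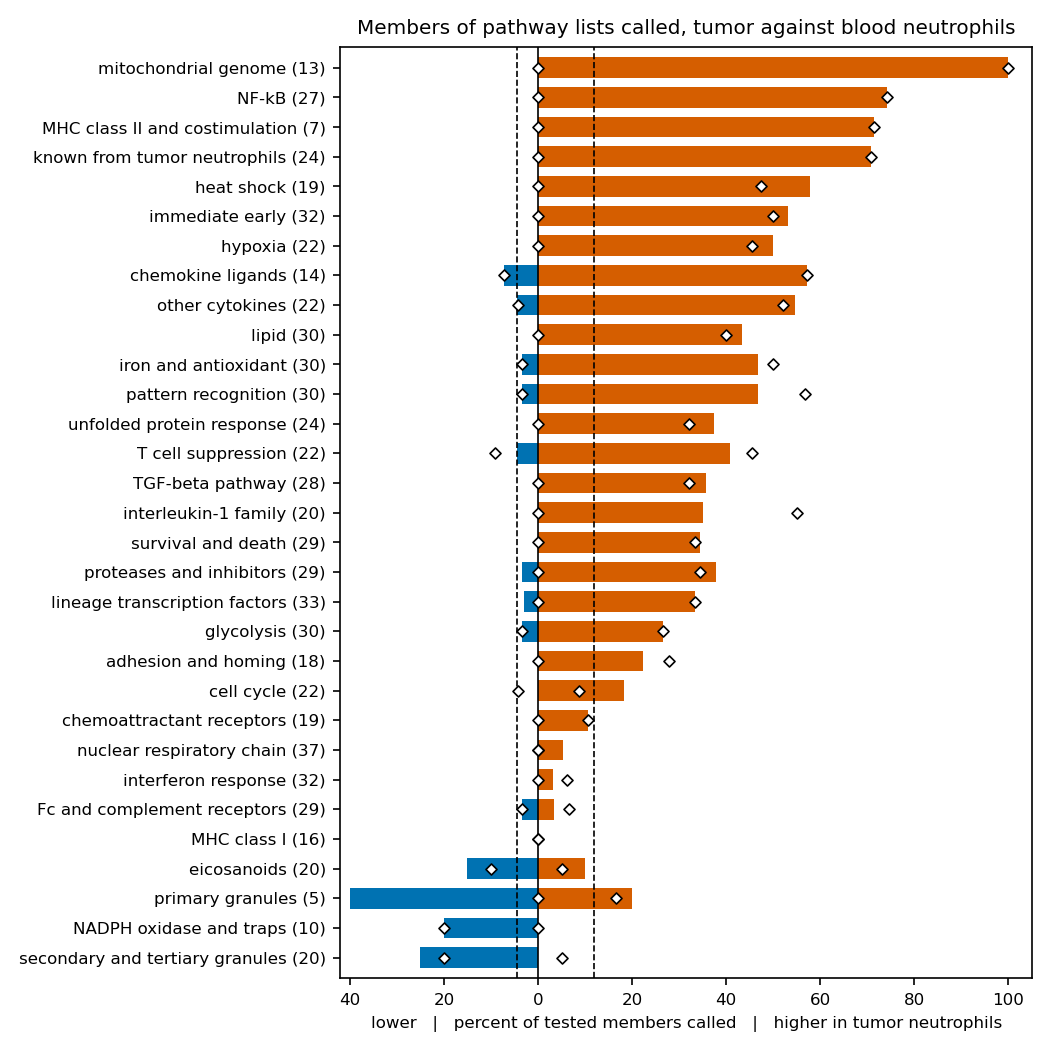
Share of tested members of each pathway list called higher (orange, to the right) and lower (blue, to the left) in tumor neutrophils, with the number tested in brackets; open diamonds give the same shares without tumor replicate 1, and dashed lines mark the 11.9% and 4.41% of all genes. All 13 protein-coding mitochondrial genes and 20 of 27 NF-kB genes were called higher.

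Proteins of secondary and tertiary granules are made before the neutrophil leaves the marrow. None of the 20 genes tested was called higher and 5 were called lower. Ltf (lactoferrin, ENSMUSG00000032496, chromosome 9 from 111019271 to 111042767, plus strand), the iron-binding protein of secondary granules, was at 1.11, 1.02, 1.87 and 1.42 RPKM in tumor and 30.3, 11.4, 21.1 and 33.8 RPKM in blood. Every tumor library lay far below every blood library, and Ltf fell (log2 fold change -4.11, SE 0.45, edgeR adjusted p = 0.000562). Camp, the precursor of the antimicrobial peptide CRAMP, was at 0.469, 0.213, 1.45 and 0.198 RPKM in tumor and 20.8, 5.79, 8.604 and 30.1 RPKM in blood, and it fell with no overlap (log2 fold change -4.81, SE 0.82, edgeR adjusted p = 0.00308). Ngp, neutrophilic granule protein, was at 6.62, 8.74, 49.1 and 66.9 RPKM in tumor and 456, 269.9, 135 and 271 RPKM in blood. Its fall (log2 fold change -3.10, edgeR adjusted p = 0.0144) kept its call without tumor replicate 1 (log2 fold change -2.74, edgeR adjusted p = 0.0126). Chil3, a chitinase-like protein, also fell (log2 fold change -3.67, edgeR adjusted p = 0.03099), but it missed the threshold without tumor replicate 1 (log2 fold change -3.30, edgeR adjusted p = 0.0654). The 5 falls were those 4 genes and Cybb, described with the oxidase. Mmp8, neutrophil collagenase, was at 16.4, 45.1, 180.1 and 279.9 RPKM in tumor and 904, 833, 287 and 272 RPKM in blood and did not pass the test (log2 fold change -2.10, edgeR adjusted p = 0.0901). Lcn2, the siderophore-binding lipocalin, was at 51.4, 142, 234 and 304 RPKM in tumor and 599, 396, 188 and 274 RPKM in blood, with overlap (log2 fold change -0.88, edgeR adjusted p = 0.317). Over the 20 members the median log2 fold change was -1.03, and -0.74 without tumor replicate 1.

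Genes of primary granule proteins are transcribed mainly in marrow precursors. Mpo, the myeloperoxidase of primary granules, did not exceed 0.0116 RPKM in the tumor libraries and 0.106 RPKM in blood, and it was not tested because of its low counts, like Elane, neutrophil elastase. Lyz2, lysozyme, was at 65.05, 126, 202 and 274 RPKM in tumor and 456, 433, 645 and 601 RPKM in blood and fell (log2 fold change -1.62, edgeR adjusted p = 0.0427), as did Man2b1, the lysosomal alpha-mannosidase (log2 fold change -1.55, edgeR adjusted p = 0.0259). Both calls were lost without tumor replicate 1 because the log2 fold change no longer exceeded 1.5 in size. The adjusted p there was still under 0.05, at 0.00871 for Lyz2 and 0.00965 for Man2b1 in edgeR. Ctsc, the protease that activates the serine proteases of the granules, was the 1 member called higher (log2 fold change 1.62, edgeR adjusted p = 0.01704), although the groups overlapped.

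Of the genes of the phagocyte oxidase and of neutrophil extracellular traps, 2 of 10 tested were called lower and 0 higher. Without tumor replicates 1 and 2, 1 of 10 was called lower. Cybb, the catalytic gp91phox subunit, was at 4.85, 1.28, 5.97 and 7.45 RPKM in tumor and 22.5, 12.8, 12.5 and 15.9 RPKM in blood, and fell (log2 fold change -1.76, SE 0.42, edgeR adjusted p = 0.0153). Ncf1, its cytosolic partner p47phox, was at 18.1, 33.7, 35.6 and 38.8 RPKM in tumor and 34.9, 19.7, 20.7 and 23.6 RPKM in blood, with overlap, and did not pass the test (log2 fold change 0.49, edgeR adjusted p = 0.443). Padi4, the enzyme that citrullinates histones during trap formation, was at 1.403, 2.58, 4.79 and 3.04 RPKM in tumor and 12.99, 10.6, 8.16 and 14.8 RPKM in blood. Padi4 fell (log2 fold change -1.87, SE 0.44, edgeR adjusted p = 0.0145) and remained called without tumor replicate 1 (log2 fold change -1.58, edgeR adjusted p = 0.00738).

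Among the receptors that guide neutrophils, 2 of 19 were called higher, and the median log2 fold change was 0.26, or -0.01 without tumor replicate 1. Cxcr2, the receptor of the chemokines CXCL1 and CXCL2, was at 60.4, 441, 325 and 380.4 RPKM in tumor and 506, 514, 623 and 471 RPKM in blood, below blood in every tumor library but with the other 3 tumor libraries close to it (log2 fold change -0.60, edgeR adjusted p = 0.553). Fpr1, the receptor of formylated bacterial peptides, was at 35.1, 88.8, 166 and 208 RPKM in tumor and 95.2, 101, 74.3 and 52.1 RPKM in blood, with overlap (log2 fold change 0.71, edgeR adjusted p = 0.375), and Cxcr4, the marrow-retention receptor, was at 22.2, 52.8, 45.8 and 33.1 RPKM in tumor and 12.3, 21.4, 31.7 and 25.5 RPKM in blood (log2 fold change 0.93, edgeR adjusted p = 0.223). Neither of these differed beyond the spread between libraries. The 2 members called higher were Ptafr, the receptor of platelet-activating factor, at 62.7, 131, 150.3 and 156 RPKM in tumor and 12.4, 18.7, 14.4 and 21.5 RPKM in blood (log2 fold change 3.02, SE 0.47, edgeR adjusted p = 0.00208), and Ccrl2, an atypical receptor that presents chemerin, at 84.4, 144, 95.8 and 89.9 RPKM in tumor and 0.15, 0.0891, 2.79 and 2.69 RPKM in blood (log2 fold change 6.29, SE 1.18, edgeR adjusted p = 0.00487). Both had no overlap between the groups and mean levels of 0.0742 and 0.349 RPKM in sorted tumor epithelial cells.

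Among adhesion genes, 4 of 18 were called higher and 0 lower. Icam1 (ENSMUSG00000037405, chromosome 9 from 21015985 to 21028817, plus strand), the ligand of the leukocyte beta2 integrins, was at 17.6, 38.1, 21.9 and 24.4 RPKM in tumor and 0.178, 0.264, 0.675 and 0.212 RPKM in blood. No library of one group came near the other, a rise (log2 fold change 6.43, SE 0.70, edgeR adjusted p = 0.000562) that was as large without tumor replicate 1 (log2 fold change 6.67, edgeR adjusted p = 0.000893). Itgb1, the beta1 integrin chain that binds matrix, was at 9.78, 6.45, 5.82 and 5.78 RPKM in tumor and 0.738, 0.718, 1.28 and 1.67 RPKM in blood and rose (log2 fold change 2.69, edgeR adjusted p = 0.00218). Its level in sorted tumor epithelial cells was higher still, 11.7 ± 4.16 RPKM (mean ± SD, n = 4, as for every epithelial level given with an error). Cd9, a tetraspanin, was at 15.7, 15.7, 30.4 and 33.5 RPKM in tumor and 5.74, 5.298, 7.87 and 8.46 RPKM in blood and rose (log2 fold change 1.82, edgeR adjusted p = 0.00788). F11r, the junction protein JAM-A, was the fourth, with its highest tumor level in replicate 1 and 9.07 ± 1.81 RPKM in epithelial cells.

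Sensors of microbial products were called higher in 14 of 30 cases and lower in 1. Cd14, the co-receptor of lipopolysaccharide, was at 363, 749, 1166 and 1147 RPKM in tumor and 78.4, 106, 112 and 166 RPKM in blood. The lowest tumor library was more than 2 times the highest blood library, and Cd14 rose (log2 fold change 2.97, SE 0.53, edgeR adjusted p = 0.00371), while sorted tumor epithelial cells had 2.01 ± 1.07 RPKM. The kinase Irak2, which carries Toll-like receptor signals onward, was at 8.49, 20.8, 15.3 and 15.7 RPKM in tumor and 1.02, 1.397, 0.798 and 1.45 RPKM in blood (log2 fold change 3.89, edgeR adjusted p = 0.000889), and Irak3, its inhibitory relative, was at 21.2, 26.6, 34.3 and 37.2 RPKM in tumor and 5.91, 6.78, 4.84 and 5.79 RPKM in blood (log2 fold change 2.45, edgeR adjusted p = 0.00124). Both rose with no overlap, as did the C-type lectins Clec4e (Mincle), from 27.9 to 134 RPKM on average (log2 fold change 2.41, edgeR adjusted p = 0.00532), and Clec4n (Dectin-2), from 1.04 to 7.42 RPKM (log2 fold change 2.84, edgeR adjusted p = 0.00268). Tlr2, the receptor of bacterial lipopeptides, was called higher with overlap in tumor replicate 1 (log2 fold change 1.91, edgeR adjusted p = 0.0297), and Tlr4, the receptor of lipopolysaccharide, was at 8.39, 27.7, 24.2 and 26.4 RPKM in tumor and 6.78, 11.2, 11.6 and 5.88 RPKM in blood without passing the test (log2 fold change 1.46, edgeR adjusted p = 0.0748). Tlr5, the flagellin receptor, fell (log2 fold change -1.94, edgeR adjusted p = 0.0206), with 0.386, 0.343, 1.07 and 1.37 RPKM in tumor and 2.103, 3.31, 3.52 and 3.12 RPKM in blood. The call on Tlr5 was lost without tumor replicates 1 and 2 (log2 fold change -1.38, edgeR adjusted p = 0.0142). Without tumor replicate 1, 17 members were called higher, but 8 of 31, 6 of 31 and 7 of 31 without blood replicate 1, 2 or 4, and 7 of 30 with a replicate block.

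Among the lists of nuclear genes plotted by share, NF-kB had the largest share of members called higher: 20 of 27 members were called higher, 0 lower, and the median log2 fold change was 2.73. Of those 20, 20 were called again without tumor replicate 1 and 19 without replicates 1 and 2, and all 20 had a mean level above that of sorted tumor epithelial cells. NF-kB dimers of Rel proteins are held in the cytosol by IkB inhibitors, and once freed they switch on cytokines together with their own inhibitors. All 5 subunit genes were called higher. Rel was at 22.4, 51.98, 37.9 and 40.6 RPKM in tumor and 5.44, 6.36, 7.66 and 8.27 RPKM in blood (log2 fold change 2.63, edgeR adjusted p = 0.00415), Nfkb1 rose from 2.14 ± 0.577 to 10.3 ± 2.41 RPKM (SD, n = 4; log2 fold change 2.31, edgeR adjusted p = 0.00114), and Rela from 2.699 ± 1.09 to 11.3 ± 2.904 RPKM (log2 fold change 2.23, edgeR adjusted p = 0.00662). The subunits of the noncanonical branch rose as well, Nfkb2 from 0.828 ± 0.193 to 11.2 ± 5.34 RPKM (log2 fold change 3.99, edgeR adjusted p = 0.00137) and Relb from 0.179 ± 0.123 to 2.45 ± 1.01 RPKM (log2 fold change 3.75, edgeR adjusted p = 0.00516). The groups did not overlap for any of the 5.

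Several inhibitors and feedback genes had larger log2 fold changes than the subunits. Nfkbia, which encodes IkB-alpha, was at 30.2, 114, 66.5 and 59.4 RPKM in tumor and 7.42, 3.31, 4.92 and 2.93 RPKM in blood (log2 fold change 4.12, SE 0.63, edgeR adjusted p = 0.001897). Tumor replicate 2 was highest and all 4 tumor libraries lay above blood. Nfkbie, IkB-epsilon, was at 12.9, 19.2, 38.9 and 25.5 RPKM in tumor and 0.485, 0.6001, 1.35 and 1.66 RPKM in blood (log2 fold change 4.61, SE 0.59, edgeR adjusted p = 0.000889). Tnfaip3 (ENSMUSG00000019850, chromosome 10 from 19000910 to 19015657, minus strand), the ubiquitin-editing enzyme A20 that ends the signal, was at 39.3, 118, 45.9 and 46.2 RPKM in tumor and 0.372, 0.483, 1.43 and 1.805 RPKM in blood, and it rose with no overlap (log2 fold change 6.17, SE 0.86, edgeR adjusted p = 0.00123). Of its partners, Tnip1 rose from 1.63 ± 0.311 to 12.9 ± 4.796 RPKM (log2 fold change 3.04, edgeR adjusted p = 0.000747), whereas Tnip3 was at 1.34, 0.409, 0.287 and 0.0928 RPKM in the tumor libraries and had at most 2 counts in any blood library. Traf1, an adaptor of the TNF receptors, was at 3.695, 10.9, 5.35 and 5.91 RPKM in tumor and 0.107, 0.0338, 0.533 and 0.0322 RPKM in blood (log2 fold change 5.37, edgeR adjusted p = 0.00617), and Ikbke, an IkB kinase relative, was at 2.53, 1.34, 4.03 and 3.19 RPKM in tumor and 0.0475, 0.0242, 0.0487 and 0.0375 RPKM in blood (log2 fold change 6.12, edgeR adjusted p = 0.00014). Sod2, the mitochondrial superoxide dismutase and a known target, was at 7.53, 4.75, 11.6 and 13.7 RPKM in tumor and 0.184, 0.214, 0.219 and 0.282 RPKM in blood (log2 fold change 5.38, SE 0.42, edgeR adjusted p = 0.00014), so that its lowest tumor level exceeded its highest blood level by more than 10 times.

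The letters GGANTTTCC, a core of kappaB sites, were searched on both strands of the 250 bases before each RefSeq gene start in GRCm38.p6. They were found in 350 of 32851 such windows, or 1.07%, and the windows belong to 27025 gene symbols. Counts over lists, here and for ACGTG below, are per gene with a match in any of its windows, a different unit. Among chemokine ligands the letters were in the promoters of 4 of 23 genes, Cxcl1, Cxcl2, Cxcl3 and Cxcl10, all called higher, as were 6 of the 23. Among NF-kB genes they were in 6 of 22, those of Icam1, Ier3, Nfkb2, Nfkbia, Tnfaip2 and Tnfaip3. Of these 6, 5 were called higher, and of the 22, 17 were. Stretches of 4 of these promoters are shown because the same letters recur before 3 neighboring chemokine genes and before the gene of the inhibitor. The match is in capitals and bases are written 5′ to 3′ on the strand of the gene. A match is a description of letters and not evidence of a bound factor.
Cxcl1, chr5:90891130-90891228, plus strand, match starting 70 bases before the gene start: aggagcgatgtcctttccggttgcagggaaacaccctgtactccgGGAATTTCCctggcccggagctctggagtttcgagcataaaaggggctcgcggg
Cxcl2, chr5:90903758-90903856, plus strand, match starting 96 bases before it: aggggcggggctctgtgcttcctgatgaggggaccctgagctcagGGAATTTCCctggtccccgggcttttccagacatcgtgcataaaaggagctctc
Cxcl3, chr5:90785984-90786082, plus strand, match starting 72 bases before it: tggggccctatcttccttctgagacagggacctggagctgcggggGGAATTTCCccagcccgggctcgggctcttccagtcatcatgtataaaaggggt
Nfkbia, chr12:55492772-55492870, minus strand, match starting 178 bases before it: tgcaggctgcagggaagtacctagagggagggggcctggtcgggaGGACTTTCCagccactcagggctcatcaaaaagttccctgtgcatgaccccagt

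Cxcl1, Cxcl2 and Cxcl3, all ligands of CXCR2 that draw neutrophils, rose together. Cxcl2 was at 336, 906, 753 and 638 RPKM in tumor and 10.5, 7.57, 35.3 and 26.6 RPKM in blood. Cxcl3 was at 37.4, 149.9, 70.9 and 66.5 RPKM in tumor and 0.886, 0.45, 4.22 and 1.57 RPKM in blood. Cxcl1 was at 10.7, 32.6, 12.5 and 12.7 RPKM in tumor and 0.324, 0.167, 0.728 and 0.311 RPKM in blood. No library of one group reached the other for any of the 3, tumor replicate 2 was the highest and replicate 1 the lowest, and each was called higher (log2 fold change 5.19, SE 0.75, edgeR adjusted p = 0.001502 for Cxcl2, log2 fold change 5.73, edgeR adjusted p = 0.002498 for Cxcl3 and log2 fold change 5.73, edgeR adjusted p = 0.00108 for Cxcl1). Sorted tumor epithelial cells had 11.5 ± 8.41 RPKM of Cxcl1. Ccl3, which encodes MIP-1alpha and draws monocytes and lymphocytes, was at 279.8, 1501, 299 and 253 RPKM in tumor and 0.566, 0.913, 19.7 and 10.6 RPKM in blood, with blood replicates 3 and 4 above the other blood libraries and tumor replicate 2 about 5 times the other tumor libraries (log2 fold change 6.52, edgeR adjusted p = 0.0102). Ccl4, its relative MIP-1beta, was also highest in tumor replicate 2 at 10.7, 47.8, 22.7 and 12.4 RPKM in tumor and 0.08598, 0.178, 3.87 and 0.464 RPKM in blood (log2 fold change 4.58, edgeR adjusted p = 0.0291), and its call was lost without tumor replicates 1 and 2 (log2 fold change 3.81, edgeR adjusted p = 0.0543). Cxcl10 and Cxcl9, interferon-induced ligands of CXCR3 on T cells, were called higher, Cxcl10 at 8.58, 7.55, 5.83 and 5.43 RPKM in tumor and 0.159, 0.0897, 0.184 and 0.455 RPKM in blood (log2 fold change 5.02, edgeR adjusted p = 0.0008) and Cxcl9 at 0.141, 5.53, 0.892 and 0.303 RPKM in tumor (log2 fold change 5.60, edgeR adjusted p = 0.0181). Epithelial cells had 11.1 ± 8.47 RPKM of Cxcl10. Ccl2, the main attractant of monocytes, was called higher (log2 fold change 5.52, edgeR adjusted p = 0.0271) on a level of 1.66, 47.5, 1.92 and 1.01 RPKM, which rests on tumor replicate 2, and the call was lost without replicates 1 and 2 (log2 fold change 1.72, edgeR adjusted p = 0.0872). In all, 8 of 14 chemokine ligands tested were called higher, all 8 also without tumor replicate 1, and the 1 called lower was the platelet chemokine gene Ppbp, whose list of platelet markers was lower too.

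**Figure D3:**
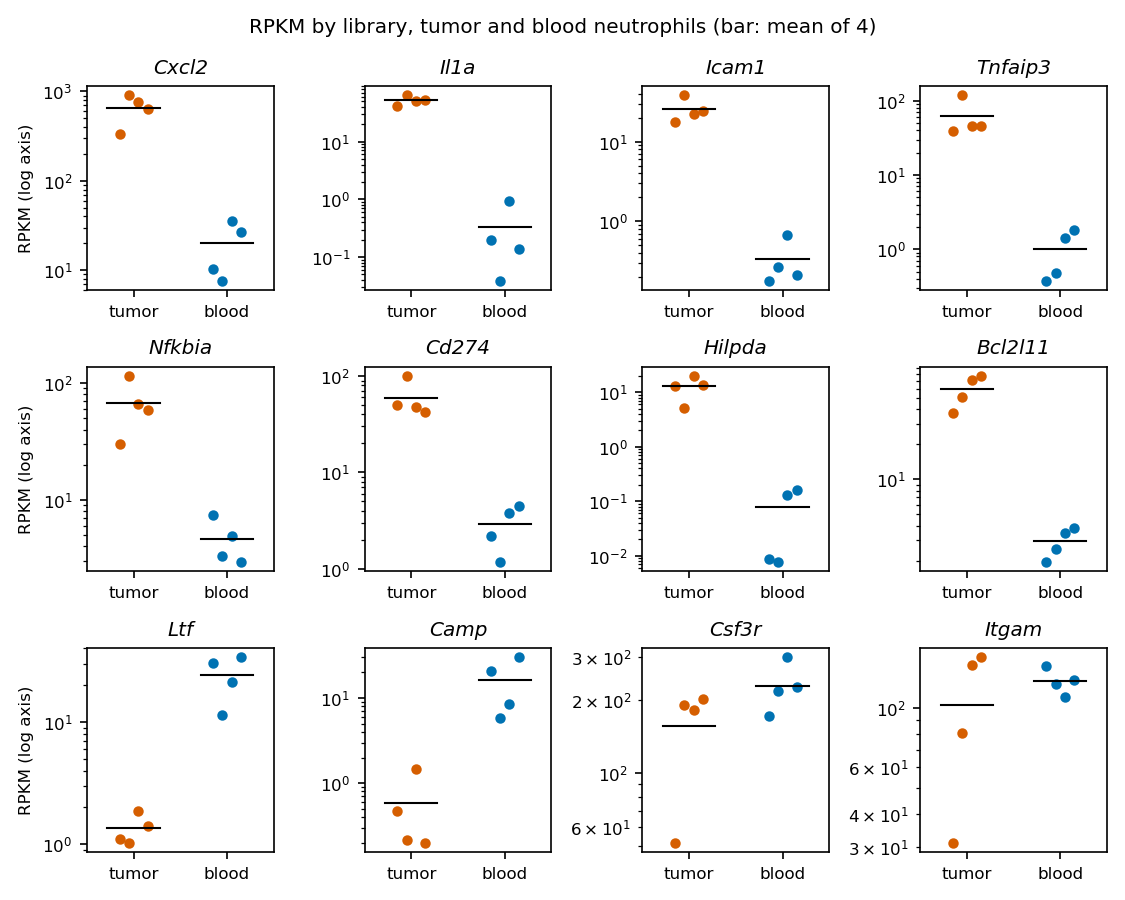
RPKM of 12 genes in each tumor (orange) and blood (blue) neutrophil library on a log axis, with bars at the group means. Cxcl2, Il1a, Icam1, Tnfaip3, Nfkbia, Cd274, Hilpda and Bcl2l11 do not overlap and are higher in tumor, Ltf and Camp do not overlap and are lower, and Csf3r and Itgam overlap.

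The interleukin-1 family, whose ligands are made as inducible alarm signals, had 7 of 20 members called higher and 11 of 20 without tumor replicate 1. The count was 4 of 21 without blood replicate 4 and 4 of 20 with a replicate block. Il1a was at 41.4, 63.2, 51.02 and 53.1 RPKM in tumor and 0.199, 0.0383, 0.948 and 0.136 RPKM in blood, and rose with no overlap (log2 fold change 7.40, SE 1.00, edgeR adjusted p = 0.00108). Its RPKM was similar in the 4 tumor libraries, and epithelial cells had 0.631 ± 0.281 RPKM. Il1b, the secreted ligand, was at 291, 1128, 776 and 627 RPKM in tumor and 97.95, 170.1, 364 and 312 RPKM in blood. With overlap at tumor replicate 1, Il1b did not pass the test (log2 fold change 1.78, edgeR adjusted p = 0.0869), while without that library it did (log2 fold change 2.10, edgeR adjusted p = 0.0303). Il1rn, the soluble antagonist of both ligands, was at 93.5, 221, 189 and 187 RPKM in tumor and 11.9, 19.95, 24.5 and 19.9 RPKM in blood (log2 fold change 3.33, SE 0.53, edgeR adjusted p = 0.00222), and Nlrp3, the sensor of the inflammasome that matures IL-1beta, was at 64.5, 209, 149.9 and 166 RPKM in tumor and 10.4, 12.6, 27.9 and 25.7 RPKM in blood (log2 fold change 3.11, SE 0.62, edgeR adjusted p = 0.00638). Both rose with no overlap. Il1f6, which encodes IL-36alpha, was at 1.502, 0.611, 3.16 and 2.13 RPKM in tumor and had at most 1 count in any blood library. Il1r1, the signaling receptor, was called higher at low levels, 0.426, 0.0386, 0.123 and 0.2896 RPKM in tumor (log2 fold change 2.98, edgeR adjusted p = 0.02503), and the decoy receptor Il1r2 was at 46.03, 114, 142 and 136 RPKM in tumor and 71.8, 32.7, 26.6 and 31.4 RPKM in blood without passing the test (log2 fold change 1.59, edgeR adjusted p = 0.0518).

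Other cytokines and growth factors were called higher in 12 of 22 cases. Tnf was at 26.98, 74.3, 25.97 and 36.6 RPKM in tumor and 2.96, 6.64, 3.72 and 2.63 RPKM in blood (log2 fold change 3.64, SE 0.61, edgeR adjusted p = 0.00278), Csf1, the growth factor of macrophages, at 11.6, 20.5, 9.84 and 11.1 RPKM in tumor and 2.19, 2.06, 3.595 and 4.23 RPKM in blood (log2 fold change 2.32, edgeR adjusted p = 0.0105), and Il23a, the p19 chain of IL-23, at 5.82, 3.16, 3.32 and 2.78 RPKM in tumor and 0.131, 0.0116, 0 and 0 RPKM in blood (log2 fold change 6.63, edgeR adjusted p = 0.00363). In each the groups did not overlap, and for Il23a the epithelial level of 3.99 ± 2.07 RPKM was of the same size as in the tumor neutrophil libraries. Spp1, osteopontin, was at 19.9, 19.4, 42.1 and 46.4 RPKM in tumor and 0.149, 0.226, 0.197 and 1.29 RPKM in blood (log2 fold change 6.11, SE 0.82, edgeR adjusted p = 0.00104), against 6.65 ± 4.8 RPKM in epithelial cells. Vegfa, the vascular growth factor, was at 8.52, 9.72, 7.04 and 5.605 RPKM in tumor and 0.503, 0.949, 1.72 and 1.3 RPKM in blood (log2 fold change 2.90, edgeR adjusted p = 0.00363). The epidermal growth factor receptor ligands Areg and Hbegf rose (log2 fold change 8.17, edgeR adjusted p = 0.00139 for Areg and log2 fold change 7.47, edgeR adjusted p = 0.00239 for Hbegf), but their tumor levels of 16.98, 4.05, 3.196 and 0.8697 RPKM for Areg and 7.57, 8.499, 0.9201 and 0.791 RPKM for Hbegf spread widely and their epithelial means were 14.1 and 14.2 RPKM. Hgf, a growth factor of epithelial cells, was the member that fell, from 0.852 ± 0.285 to 0.253 ± 0.0721 RPKM (SD, n = 4; log2 fold change -1.76, edgeR adjusted p = 0.0264).

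Genes of the response to low oxygen were called higher in 11 of 22 cases, with a median log2 fold change of 1.58, and 10 of these were called without tumor replicate 1 as well. The count was 7 of 25 without blood replicate 1 and 7 of 26 without blood replicate 2. Hypoxia-inducible factors bind the letters ACGTG in control regions of metabolic genes and are degraded through prolyl hydroxylases when oxygen is present. Hif1a, the inducible subunit, was at 13.8, 12.7, 27.8 and 29.6 RPKM in tumor and 7.27, 5.76, 5.503 and 6.55 RPKM in blood (log2 fold change 1.77, edgeR adjusted p = 0.00654), and Epas1, its relative HIF-2alpha, was at 1.82, 2.86, 0.448 and 0.449 RPKM in tumor and 0.0592, 0.114, 0.0319 and 0.0334 RPKM in blood (log2 fold change 4.85, edgeR adjusted p = 0.004804). Hilpda, an inhibitor of lipid breakdown, was at 13.1, 5.25, 19.8 and 13.97 RPKM in tumor and 0.008804, 0.007601, 0.129 and 0.163 RPKM in blood (log2 fold change 7.29, SE 0.88, edgeR adjusted p = 0.000772). The rise of Hilpda was clear in all 4 tumor libraries, with 0.695 ± 0.319 RPKM in epithelial cells. Ero1l, the oxidase of the endoplasmic reticulum, was at 35.9, 29.8, 40.6 and 46.9 RPKM in tumor and 1.67, 2.67, 3.13 and 3.56 RPKM in blood (log2 fold change 3.83, SE 0.39, edgeR adjusted p = 0.000496), Bhlhe40, a transcriptional repressor, at 44.5, 48.1, 60.7 and 60.9 RPKM in tumor and 0.649, 0.359, 1.71 and 0.876 RPKM in blood (log2 fold change 5.94, SE 0.60, edgeR adjusted p = 0.000507), and Egln3, the hydroxylase PHD3, at 14.9, 11.4, 24.7 and 29.6 RPKM in tumor and 1.998, 4.26, 1.998 and 4.601 RPKM in blood (log2 fold change 2.67, edgeR adjusted p = 0.00222). All of these groups were without overlap. ACGTG was present in 16.6% of all promoter windows, in 14 of the 22 hypoxia genes with a promoter and in 7 of the 7 called higher with one (Bnip3, Ddit4, Egln3, Hif1a, Hilpda, P4ha1 and Vegfa). The stretches of 2 of them are shown as examples of these letters, in capitals, in the same build and direction as above.
Egln3, chr12:54204054-54204124, minus strand, match starting 229 bases before the gene start: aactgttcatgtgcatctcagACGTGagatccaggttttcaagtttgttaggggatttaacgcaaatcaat
Bnip3, chr7:138909564-138909659, minus strand, matches on both strands starting 108 and 107 bases before it: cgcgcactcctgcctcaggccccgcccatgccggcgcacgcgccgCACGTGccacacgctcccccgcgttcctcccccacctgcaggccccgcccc

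Of the genes of glycolysis, on which neutrophils rely for energy, those called were transporters of glucose and lactate and enzymes of its upper, regulated steps. Of 30 members tested, 8 were called higher and 1 lower, and the median log2 fold change was 0.36. The count called higher was 4 of 31 without tumor replicate 2 and 5 of 31 without blood replicate 1 or 3. Slc2a1, the glucose transporter GLUT1, was at 31.8, 80.3, 65.8 and 60.9 RPKM in tumor and 13.4, 16.97, 18.7 and 20.04 RPKM in blood (log2 fold change 1.96, edgeR adjusted p = 0.0161). Hk2, hexokinase 2, was at 5.75, 5.87, 5.04 and 4.03 RPKM in tumor and 1.303, 2.11, 1.29 and 2.03 RPKM in blood (log2 fold change 1.74, edgeR adjusted p = 0.00954), and Pfkp and Pfkl, phosphofructokinase subunits, rose from 2.39 to 9.76 RPKM (log2 fold change 2.12, edgeR adjusted p = 0.00343) and from 0.669 to 4.52 RPKM (log2 fold change 2.99, edgeR adjusted p = 0.01102). The call on Hk2 was lost without tumor replicates 1 and 2 (log2 fold change 1.37, edgeR adjusted p = 0.00767). The 2 bifunctional enzymes that set fructose 2,6-bisphosphate moved in opposite directions: Pfkfb3 was at 9.13, 10.9, 14.4 and 15.7 RPKM in tumor and 5.26, 6.23, 3.92 and 3.197 RPKM in blood and rose (log2 fold change 1.53, SE 0.36, edgeR adjusted p = 0.01399), and Pfkfb4 was at 0.666, 1.25, 3.94 and 2.89 RPKM in tumor and 10.6, 9.04, 10.4 and 7.29 RPKM in blood and fell (log2 fold change -2.05, SE 0.51, edgeR adjusted p = 0.0196). Both were called without tumor replicate 1 as well, but Pfkfb3 lost its call without tumor replicate 2 or 4 or blood replicate 1, 3 or 4, and Pfkfb4 without blood replicate 3. Gapdh and Ldha, enzymes of lower glycolysis that have many processed copies in the genome, did not exceed 3.89 and 0.764 RPKM in any of the 8 libraries, and how reads shared with those copies were counted is not given in the sources used here.

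Lipid genes were called higher in 13 of 30 cases and fell into groups by their level in epithelium. Olr1, the receptor LOX-1 of oxidized lipoprotein, was at 24.4, 25.8, 31.6 and 40.8 RPKM in tumor and 1.16, 0.866, 1.23 and 1.12 RPKM in blood (log2 fold change 4.87, SE 0.39, edgeR adjusted p = 0.00014), Plin2, a coat protein of lipid droplets, at 12.6, 19.8, 28.4 and 29.6 RPKM in tumor and 5.78, 3.51, 5.73 and 5.53 RPKM in blood (log2 fold change 2.22, edgeR adjusted p = 0.00447), G0s2, an inhibitor of triglyceride lipase, at 39.2, 131, 143 and 89.9 RPKM in tumor and 6.92, 5.77, 13.4 and 19.9 RPKM in blood (log2 fold change 3.28, edgeR adjusted p = 0.00554), and Abca1, the cholesterol exporter, at 7.56, 10.7, 13.2 and 15.8 RPKM in tumor and 0.325, 0.425, 0.801 and 0.248 RPKM in blood (log2 fold change 4.78, edgeR adjusted p = 0.000605). In these uptake, storage and export genes all tumor libraries were above blood and the mean was above that of epithelial cells. Fasn, fatty acid synthase, was at 2.21, 1.204, 1.18 and 0.404 RPKM in tumor and 6.43 ± 1.34 RPKM in epithelial cells (log2 fold change 6.43, edgeR adjusted p = 0.00105), and Scd1, the desaturase, at 6.03, 0.0922, 1.11 and 0.914 RPKM in tumor and 11.96 ± 4.33 RPKM in epithelial cells (log2 fold change 6.12, edgeR adjusted p = 0.00279). The synthesis genes were thus highest in tumor replicate 1, the library with most epithelial transcripts. Their part in the rise of the 2 genes was not tested.

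Iron handling and antioxidant genes were called higher in 14 of 30 cases. Fth1, the heavy chain of the iron store ferritin, was at 474, 538, 1069 and 1010 RPKM in tumor and 108, 103, 83.8 and 92.6 RPKM in blood (log2 fold change 3.06, SE 0.41, edgeR adjusted p = 0.000968), a gene with processed copies. Slc40a1, the iron exporter ferroportin, was at 3.99, 1.81, 3.02 and 3.88 RPKM in tumor and 14.3, 17.5, 17.6 and 17.4 RPKM in blood and fell (log2 fold change -2.41, SE 0.30, edgeR adjusted p = 0.000789). The store and the exporter therefore moved in opposite directions, each with no overlap. Tfrc, the transferrin receptor that takes up iron, rose from 0.126 to 3.43 RPKM (log2 fold change 4.89, edgeR adjusted p = 0.000917), with 8.25 ± 3.73 RPKM in epithelial cells. Hmox1, heme oxygenase 1, was at 40.8, 21.5, 22.2 and 35.05 RPKM in tumor and 5.598, 6.75, 5.599 and 8.78 RPKM in blood (log2 fold change 2.17, edgeR adjusted p = 0.00147), Nfe2l2, the regulator NRF2, at 74.8, 199, 169.5 and 174 RPKM in tumor and 23.4, 28.8, 24.7 and 30.8 RPKM in blood (log2 fold change 2.69, edgeR adjusted p = 0.00424), and Slc7a11, the cystine transporter, at 56.5, 138, 80.6 and 93.6 RPKM in tumor and 2.64, 5.62, 14.5 and 5.14 RPKM in blood (log2 fold change 3.88, edgeR adjusted p = 0.00424). Txnrd1, thioredoxin reductase, rose from 1.01 to 19.6 RPKM (log2 fold change 4.50, edgeR adjusted p = 0.000626). Acod1, which makes itaconate, was among the most abundant inducible transcripts, at 277, 1322, 851 and 909 RPKM in tumor and 14.7, 14.5, 54.96 and 39.1 RPKM in blood (log2 fold change 4.96, SE 0.82, edgeR adjusted p = 0.00253), and epithelial cells had 0.184 ± 0.0809 RPKM.

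Genes of survival and death were called higher in 10 of 29 cases, on both sides of the balance. Bcl2l11 (ENSMUSG00000027381, chromosome 2 from 128126038 to 128162547, plus strand), the death activator BIM, was at 37.6, 51.4, 71.5 and 77.1 RPKM in tumor and 1.94, 2.53, 3.48 and 3.81 RPKM in blood (log2 fold change 4.40, SE 0.48, edgeR adjusted p = 0.000562). Pmaip1, the activator NOXA, was at 8.71, 20.6, 6.01 and 3.68 RPKM in tumor and 0.224, 0.507, 2.81 and 0.954 RPKM in blood (log2 fold change 3.36, edgeR adjusted p = 0.0306), a call lost without tumor replicates 1 and 2 (log2 fold change 1.99, edgeR adjusted p = 0.121). Among protective genes, Bcl2l1, which encodes BCL-XL, was at 3.197, 6.35, 9.09 and 9.35 RPKM in tumor and 2.06, 1.28, 0.912 and 0.934 RPKM in blood (log2 fold change 2.55, edgeR adjusted p = 0.00438), and the 3 near-identical copies Bcl2a1a, Bcl2a1b and Bcl2a1d had log2 fold changes of 4.84, 5.15 and 4.84. Reads shared among these copies could have been divided between them, so they are 1 uncertain signal rather than 3. Tnfrsf23, a decoy receptor of TRAIL, rose from 0.527 ± 0.241 to 3.73 ± 1.72 RPKM (SD, n = 4; log2 fold change 2.80, edgeR adjusted p = 0.00487). Mcl1, the main survival factor of neutrophils, was at 62.8, 119, 127 and 125 RPKM in tumor and 92.6, 108, 92.5 and 114 RPKM in blood and did not pass the test (log2 fold change 0.22, edgeR adjusted p = 0.746).

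Genes known to act on T cells included ligands of inhibitory receptors. Cd274, which encodes PD-L1, was at 50.3, 99.6, 47.8 and 42.1 RPKM in tumor and 2.21, 1.17, 3.79 and 4.46 RPKM in blood (log2 fold change 4.57, SE 0.67, edgeR adjusted p = 0.00153). The lowest tumor library exceeded the highest blood library by more than 9 times, and epithelial cells had 0.412 ± 0.283 RPKM. Cd80, a ligand of CD28 and CTLA-4, was at 15.2, 58.4, 50.9 and 39.9 RPKM in tumor and 2.004, 1.69, 4.21 and 3.695 RPKM in blood (log2 fold change 4.00, SE 0.63, edgeR adjusted p = 0.00214). Adora2b, an adenosine receptor, was at 1.25, 2.9, 2.29 and 1.56 RPKM in tumor and 0.0885, 0.0077, 0 and 0.00877 RPKM in blood (log2 fold change 6.31, edgeR adjusted p = 0.00385), and Pvr, a ligand of TIGIT, at 2.71, 1.05, 0.413 and 0.625 RPKM in tumor and 0.0376, 0.0274, 0.0189 and 0.0323 RPKM in blood (log2 fold change 5.37, edgeR adjusted p = 0.0011), with 5.58 ± 1.71 RPKM in epithelial cells. Vsir, the checkpoint protein VISTA, was at 1.75, 2.13, 7.94 and 8.21 RPKM in tumor and 19.1, 20.3, 20.9 and 17.6 RPKM in blood and fell (log2 fold change -1.95, SE 0.50, edgeR adjusted p = 0.0216), and its call was lost without tumor replicates 1 and 2 (log2 fold change -1.34, edgeR adjusted p = 0.00159). Thus 9 of 22 members were called higher and 1 lower. Some of these genes were chosen for the list by the study on these same libraries, so its count is not independent evidence.

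Antigen presentation divided by class. None of 16 class I genes was called by edgeR, 3 had an unadjusted p under 0.05, and limma-voom and DESeq2 called 1 and 2; the median log2 fold change was 0.15, or -0.13 without tumor replicates 1 and 2. B2m, the common light chain, was at 272, 1150, 704 and 749 RPKM in tumor and 443, 453, 529.9 and 669.7 RPKM in blood (log2 fold change 0.69, edgeR adjusted p = 0.435). Of 7 class II and costimulatory genes tested, 5 were called higher (Cd74, H2-Aa, H2-Ab1, H2-Eb1 and Cd80), although the gate had been negative for MHCII protein. Cd74, the invariant chain, was at 21.5, 19.7, 25.6 and 19.1 RPKM in tumor and 0.551, 0.271, 2.39 and 2.58 RPKM in blood (log2 fold change 3.92, SE 0.72, edgeR adjusted p = 0.00441), at an even RPKM in the 4 tumor libraries, whereas H2-Ab1 was at 6.93, 6.38, 2.09 and 1.34 RPKM in tumor and 0.0343, 0.00375, 0.0275 and 0.182 RPKM in blood (log2 fold change 6.25, edgeR adjusted p = 0.00525), higher in replicates 1 and 2. Sorted tumor monocytes had 149 RPKM of Cd74 and 28.7 RPKM of H2-Ab1. Macrophage and dendritic cell markers summed to 21.9, 7.67, 19.9 and 21.7 RPKM in tumor and 10.9, 14.99, 23.1 and 23.5 RPKM in blood, with 2 of 8 called higher, C1qb and Mrc1, both at low levels of at most 2.65 RPKM. Their part in the class II rise was not tested.

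The TGF-beta pathway, whose activation in the tumor the study addressed, was called higher in 10 of 28 cases. Thbs1, thrombospondin 1, which can activate latent TGF-beta, was at 32.4, 60.8, 75.3 and 95.3 RPKM in tumor and 0.371, 1.97, 4.21 and 2.497 RPKM in blood (log2 fold change 4.92, SE 0.77, edgeR adjusted p = 0.00202). Its epithelial level of 54.4 ± 12.1 RPKM is given beside it, and its lowest tumor value was in replicate 1 and its highest in replicate 4. The intracellular repressors Tgif1 and Skil rose with no overlap, Tgif1 at 16.5, 20.4, 16.02 and 18.4 RPKM in tumor and 0.0347, 0.0694, 0.208 and 0.178 RPKM in blood (log2 fold change 7.27, SE 0.72, edgeR adjusted p = 0.000496) and Skil at 19.3, 19.3, 22.8 and 23.2 RPKM in tumor and 3.34, 3.16, 2.83 and 2.92 RPKM in blood (log2 fold change 2.87, edgeR adjusted p = 0.000633). Id3 and Pmepa1, targets of the pathway, rose (log2 fold change 6.23, edgeR adjusted p = 0.000772 for Id3 and log2 fold change 6.07, edgeR adjusted p = 0.00346 for Pmepa1), both highest in replicate 1 and below their epithelial means of 14.7 and 4.76 RPKM. The receptors did not pass the test, with Tgfbr1 at 4.97, 2.68, 4.71 and 4.96 RPKM in tumor and 2.61, 3.86, 3.9 and 3.16 RPKM in blood (log2 fold change 0.36, edgeR adjusted p = 0.437) and Tgfbr2 at 3.603, 5.43, 6.52 and 5.39 RPKM in tumor and 4.79, 5.82, 5.11 and 5.53 RPKM in blood (log2 fold change 0.10, edgeR adjusted p = 0.878).

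Proteases and their inhibitors were called higher in 11 of 29 cases. Serpinb2, an inhibitor of plasminogen activators, was at 2.02, 5.699, 8.34 and 8.47 RPKM in tumor and 0.0099, 0.115, 0.0183 and 0.0276 RPKM in blood (log2 fold change 7.22, SE 0.88, edgeR adjusted p = 0.000772), and Plaur, the urokinase receptor, at 38.9, 77.05, 98.5 and 101 RPKM in tumor and 24.1, 26.2, 18.3 and 24.5 RPKM in blood (log2 fold change 1.88, edgeR adjusted p = 0.0104). In both, replicate 1 was the lowest tumor library and epithelial levels were lower than those of tumor neutrophils. Plat, tissue plasminogen activator, and Mmp14, a membrane-bound metalloproteinase, rose (log2 fold change 7.43, edgeR adjusted p = 0.000562 for Plat and log2 fold change 5.98, edgeR adjusted p = 0.00114 for Mmp14) but were highest in replicate 1 and below epithelium, at 4.48 against 33.4 RPKM and 0.796 against 4.71 RPKM. Ctsb, cathepsin B, was at 26.2, 28.2, 22.4 and 24.5 RPKM in tumor and 5.34, 6.003, 8.22 and 8.38 RPKM in blood (log2 fold change 1.96, edgeR adjusted p = 0.00516), even in RPKM among tumor libraries. Adam19, a membrane metalloprotease, fell (log2 fold change -1.75, edgeR adjusted p = 0.0408), with no call without tumor replicate 1 (log2 fold change -1.41, edgeR adjusted p = 0.00305).

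Eicosanoid enzymes and receptors were called lower in 3 of 20 cases and higher in 2, Ptgs2 and the leukotriene receptor Cysltr1, the latter at no more than 0.333 RPKM. Without blood replicate 4, 1 member was called lower. The count called higher was 0 without blood replicate 1, 2 or 3 and with a replicate block. Tbxas1, thromboxane synthase, was at 0.356, 0.188, 0.3303 and 0.278 RPKM in tumor and 1.099, 1.29, 1.66 and 1.54 RPKM in blood and fell (log2 fold change -2.28, SE 0.37, edgeR adjusted p = 0.00226). Ptger1, a prostaglandin E2 receptor, fell as well (log2 fold change -1.97, edgeR adjusted p = 0.017), and Ptgs1, cyclooxygenase 1, fell (log2 fold change -1.84, edgeR adjusted p = 0.0455) but lost its call without tumor replicate 1 (log2 fold change -1.77, edgeR adjusted p = 0.0897). Tbxas1 and Ptgs1 are also known from platelets, whose markers were lower in the tumor libraries. Of the receptors for antibody and complement and related lectins, Cd93 was at 6.46, 11.4, 10.9 and 14.1 RPKM in tumor and 0.422, 0.382, 0.672 and 0.813 RPKM in blood and rose (log2 fold change 4.33, SE 0.49, edgeR adjusted p = 0.000633), and the inhibitory lectin receptor Clec12a was at 0.342, 0.4699, 1.17 and 1.35 RPKM in tumor and 5.56, 4.79, 5.58 and 3.87 RPKM in blood and fell (log2 fold change -2.54, SE 0.47, edgeR adjusted p = 0.004604), the only 2 of 29 called.

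Immediate early genes, which respond within minutes to stimuli and also to tissue digestion, a step that blood did not undergo, were called higher in 17 of 32 cases. Nr4a3, an orphan nuclear receptor, was at 17.03, 21.6, 21.5 and 19.8 RPKM in tumor and 0.0274, 0.0314, 0.0301 and 0.18 RPKM in blood (log2 fold change 8.31, SE 0.83, edgeR adjusted p = 0.000496). Fosl1, a Fos-family subunit, was at 12.4, 19.6, 40.5 and 33.6 RPKM in tumor and 0.161, 0.317, 0.887 and 1.38 RPKM in blood (log2 fold change 5.30, edgeR adjusted p = 0.00147), and Egr1 at 89.8, 166, 84.9 and 81.6 RPKM in tumor and 4.41, 8.45, 18 and 24.4 RPKM in blood (log2 fold change 3.11, edgeR adjusted p = 0.00981). Nr4a3 was well above its epithelial level of 1.57 ± 0.686 RPKM, whereas Egr1 had 119 ± 48.1 RPKM there. Of the 17 called, 9 had a mean below that of epithelial cells, including Myc, at 8.73, 4.41, 2.87 and 1.78 RPKM in tumor against 16.9 ± 3.096 RPKM in epithelium, and Ccn1, a matrix protein, at 17.1, 2.89, 5.303 and 3.42 RPKM against 51.1 ± 16.2 RPKM.

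Heat shock proteins were called higher in 11 of 19 cases and genes of the unfolded protein response in 9 of 24, of which 10 and 7 had a mean below that of epithelial cells. Hsph1, a large chaperone, was at 16.01, 1.83, 2.73 and 3.51 RPKM in tumor and 0.0964, 0.06504, 0.0555 and 0.165 RPKM in blood (log2 fold change 5.81, edgeR adjusted p = 0.000772), with 22.1 ± 9.61 RPKM in epithelial cells. Hspa1a, whose near-identical copy Hspa1b makes its level uncertain, was at 20.2, 9.92, 6.12 and 5.35 RPKM in tumor and 0.685, 0.665, 0.177 and 0.695 RPKM in blood (log2 fold change 4.28, edgeR adjusted p = 0.00114). Both were highest in tumor replicate 1. Hspa5, the chaperone BiP, rose as well, at 100.5, 112, 103 and 125 RPKM in tumor and 23.8, 20.6, 21.3 and 31.4 RPKM in blood (log2 fold change 2.28, SE 0.38, edgeR adjusted p = 0.00256), while epithelial cells had 136 ± 46.6 RPKM. Herpud1, a factor of protein degradation at the endoplasmic reticulum, was at 10.1, 5.86, 17.2 and 18.1 RPKM in tumor and 2.01, 1.96, 3.07 and 2.99 RPKM in blood (log2 fold change 2.32, edgeR adjusted p = 0.00288), lowest in replicate 2 in RPKM.

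**Figure D4:**
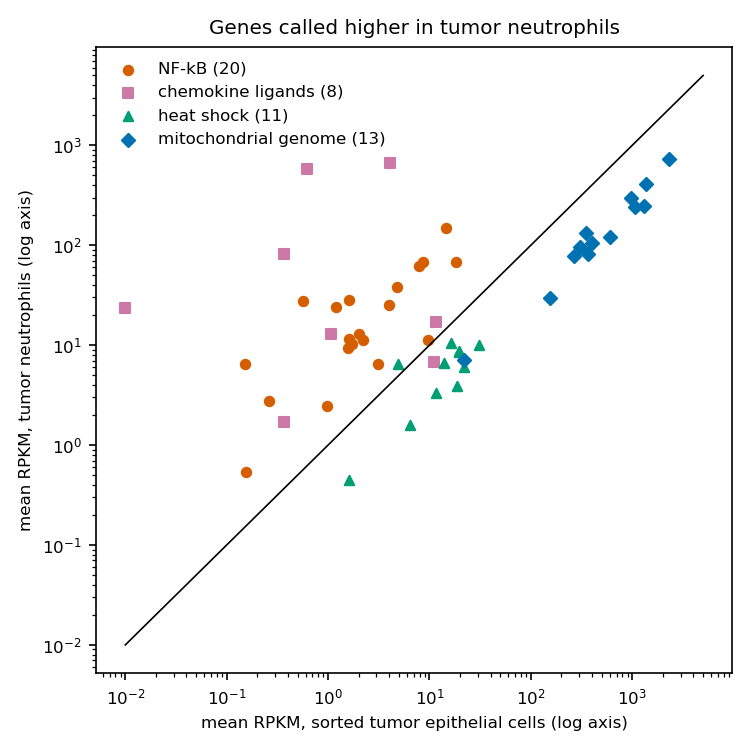
Mean RPKM in tumor neutrophils (vertical, log axis) against mean RPKM in sorted tumor epithelial cells (horizontal, log axis, values under 0.01 drawn at 0.01) for members called higher in 4 lists; the diagonal marks equal levels. All 20 NF-kB genes lie above the diagonal, and 10 of 11 heat shock genes and all 13 protein-coding mitochondrial genes lie below it.

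Protein-coding genes of the mitochondrial genome were called higher in 13 of 13 cases, with a median log2 fold change of 4.13, and in 11 of 13 without tumor replicates 1 and 2. The mitochondrial ribosomal RNAs mt-Rnr1 (log2 fold change 1.61, edgeR adjusted p = 0.0712) and mt-Rnr2 (1.33, edgeR adjusted p = 0.186) did not pass the test. All mitochondrial transcripts together took 37.5% and 33.2% of the counts of tumor replicates 1 and 2, 18.1% and 17% of replicates 3 and 4, and 9.36% to 16.8% of the blood libraries. For mt-Nd1, a subunit of complex I, the levels were 553, 747, 185 and 142 RPKM in tumor and 7.702, 7.84, 13.4 and 8.25 RPKM in blood (log2 fold change 5.67, SE 0.77, edgeR adjusted p = 0.00108). Tumor replicates 1 and 2 were far above replicates 3 and 4, which still lay above all blood libraries, and sorted epithelial cells had 1363 ± 499.6 RPKM. Of the nuclear genes of oxidative phosphorylation, 2 of 37 were called higher, Atp5a1 (log2 fold change 1.94, edgeR adjusted p = 0.0275) and Atp5d (log2 fold change 1.72, edgeR adjusted p = 0.0466), and 0 of 37 without tumor replicate 1. Nuclear copies of mitochondrial sequence make the mitochondrial levels uncertain. Sums of epithelial markers were 236, 59.4, 50.2 and 17.2 RPKM in tumor replicates 1 to 4. The part of epithelial transcripts in the mitochondrial rise was not tested.

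Interferon-response genes had 1 of 32 members called higher and a median log2 fold change of 1.02, which turned to -0.46 without tumor replicates 1 and 2. The 1 called, a call lost without blood replicate 1, 2 or 3, was Isg15, a ubiquitin-like protein, at 5.81, 91.7, 8.54 and 6.996 RPKM in tumor and 1.68, 1.47, 1.14 and 2.22 RPKM in blood (log2 fold change 4.63, SE 1.12, edgeR adjusted p = 0.01704). Tumor replicate 2 was more than 10 times the other tumor libraries. Irf7, the regulator of the interferon genes, was at 1.67, 6.19, 2.76 and 1.902 RPKM in tumor and 2.14, 1.62, 1.16 and 4.15 RPKM in blood, also highest in replicate 2 but with overlap (log2 fold change 0.76, edgeR adjusted p = 0.462). Cell cycle genes, which mature neutrophils do not use, had 4 of 22 called higher, 2 of 23 without tumor replicate 1, 2 without blood replicate 1, 2 or 3, and 1 with a replicate block. Of the 4, Cdkn1a, the arrest gene p21, was at 50.4, 90.9, 72.04 and 57.5 RPKM in tumor and 0.278, 0.195, 0.593 and 1.02 RPKM in blood (log2 fold change 7.16, SE 0.75, edgeR adjusted p = 0.000562). The others were the replication genes Rrm1 and Mcm3, which reached at most 1.37 and 1.00 RPKM in a tumor library, and Ccnd1, cyclin D1, which overlapped between the groups and had 7.85 ± 3.13 RPKM in epithelial cells.

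Transcription factors of the lineage and of activation were called higher in 11 of 33 cases and lower in 1, with 7 higher without blood replicate 2 or 3. Spi1, the myeloid master factor PU.1, was at 11.5, 25.9, 28.02 and 34.6 RPKM in tumor and 33.2, 38.1, 31.6 and 57.1 RPKM in blood with overlap (log2 fold change -0.55, edgeR adjusted p = 0.425). Ets2 was at 56.2, 106, 109.9 and 97.6 RPKM in tumor and 12.8, 8.11, 10.8 and 22.7 RPKM in blood (log2 fold change 2.90, SE 0.51, edgeR adjusted p = 0.00355), and Maff, a small Maf protein, at 13.5, 5.67, 5.56 and 5.25 RPKM in tumor and 0.347, 0.556, 0.419 and 1.34 RPKM in blood (log2 fold change 3.48, edgeR adjusted p = 0.00222). Cebpb, which drives emergency granulopoiesis, was at 7.77, 20.04, 36.6 and 25.9 RPKM in tumor and 10.1, 5.67, 4.85 and 6.53 RPKM in blood, with blood replicate 1 above tumor replicate 1, and was called higher (log2 fold change 1.85, edgeR adjusted p = 0.02798). Klf13 fell (log2 fold change -1.63, edgeR adjusted p = 0.0139), a call lost without tumor replicate 1 (log2 fold change -1.42, edgeR adjusted p = 0.0145).

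Genes outside the lists were named by size among abundant transcripts that were called also without tumor replicate 1 and, for rises, exceeded epithelial levels by at least 3 times. Tgm2, transglutaminase 2, was at 36.4, 136, 84.9 and 87.9 RPKM in tumor and 0.6802, 0.34, 1.26 and 1.89 RPKM in blood (log2 fold change 6.57, SE 0.82, edgeR adjusted p = 0.000805). Ralgds, an exchange factor of Ral proteins, was at 4.53, 3.496, 6.87 and 7.51 RPKM in tumor and 0.0154, 0.0358, 0.0514 and 0.0959 RPKM in blood (log2 fold change 6.83, edgeR adjusted p = 0.000388), and F10, coagulation factor X, at 9.198, 8.79, 5.25 and 5.98 RPKM in tumor and 0.0488, 0.101, 0.0201 and 0.225 RPKM in blood (log2 fold change 6.33, SE 0.76, edgeR adjusted p = 0.000762). The groups did not overlap for any of the 3. Among falls, Asb7, a substrate adaptor of ubiquitin ligases, was at 0.8202, 0.758, 1.24 and 1.91 RPKM in tumor and 18.9, 18.01, 12.4 and 13.3 RPKM in blood (log2 fold change -3.68, SE 0.38, edgeR adjusted p = 0.000529). Oprm1, the mu opioid receptor, was at 0.0997, 0.247, 0.319 and 0.572 RPKM in tumor and 7.86, 6.25, 7.47 and 5.42 RPKM in blood (log2 fold change -4.37, edgeR adjusted p = 0.0008), and Abcd2, a peroxisomal transporter of fatty acids, at 0.104, 0.218, 0.427 and 0.779 RPKM in tumor and 4.78, 6.49, 4.75 and 2.92 RPKM in blood (log2 fold change -3.59, edgeR adjusted p = 0.0026). Scrg1 (log2 fold change -3.56, edgeR adjusted p = 0.00858), Prr5l, a component of mTORC2 (log2 fold change -3.48, edgeR adjusted p = 0.00253), and the kinase Map3k9 (log2 fold change -3.43, edgeR adjusted p = 0.00232) fell too, as did the unannotated 4933400F21Rik (log2 fold change -3.81, edgeR adjusted p = 0.0017) and Gm15356 (log2 fold change -3.28, edgeR adjusted p = 0.00744).

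For members called higher with all 8 libraries, the log2 fold changes with and without that library are plotted for 4 lists. Without replicate 1 the log2 fold change was larger for 19 of 20 NF-kB genes, all but Tnip3, and for 8 of 8 chemokine genes, and smaller for 10 of 11 heat shock genes. The list medians moved accordingly, from 2.73 to 2.90 for NF-kB, from 4.80 to 4.98 for chemokine ligands, and from 2.75 to 2.50 for heat shock proteins, while the median over all genes went from 0.11 to 0.00.

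**Figure D5:**
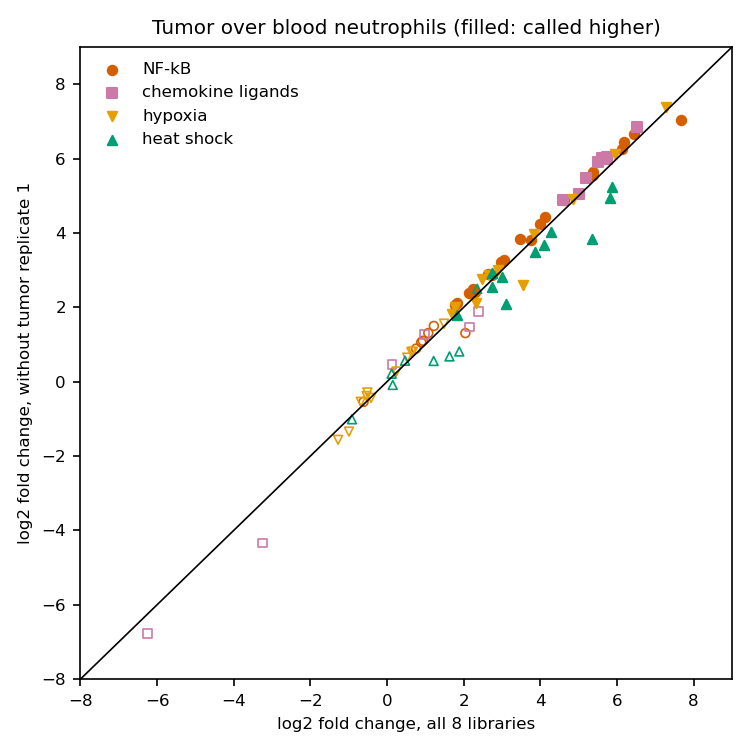
Log2 fold change, tumor over blood neutrophils, with all 8 libraries (horizontal) and without tumor replicate 1 (vertical) for members of 4 lists tested in both fits (filled if called higher with all 8 libraries); the diagonal marks equal values. Of the members called higher, 19 of 20 NF-kB genes and 8 of 8 chemokine genes lie above the diagonal and 10 of 11 heat shock genes lie below it.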

How the data were processed

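RNA of sorted cells was amplified with the Ovation V2 kit and sequenced on a HiSeq 2500. The authors aligned reads to mouse mm10, with Bowtie2 among the tools of the submitters' processing notes, and used HTSstation for gene-level values. The annotation release, strand setting and treatment of reads with several places are not given in the sources used here. The deposited tables hold expected counts, not normalized, and RPKM values, which the authors scaled by length and reads, for 45706 genes, of which 45143 matched a GENCODE M21 symbol. Gene coordinates are those of GENCODE M21 (GRCm38), and promoters those of RefSeq (GRCm38.p6).

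Expected counts were rounded (99.6% of nonzero values were not whole within 1e-06), filtered with filterByExpr and scaled by TMM. The 4 tumor and 4 blood libraries were fitted in R 4.3.3 with edgeR 4.0.16 (quasi-likelihood, robust), and p-values were adjusted over 13674 genes. The procedure was tested on simulated counts with the means and spread of the 4 blood libraries. The spread among tumor libraries was not covered. Replicate pairs differed by at least 26.8 times counting error, so each library counted once. Exact permutation tests of RPKM were two-sided, over 70 arrangements.

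The comparison, its 41 gene lists (31 pathways and 10 cell types) and the tests were chosen with earlier results of these data known. The text names, per pathway and direction, up to 6 called genes without overlap between groups, by size of change and fewer where room was short. It also names abundant genes (mean log2 CPM of at least 5) from the 12 largest rises and 12 largest falls over all genes, without overlap and called without tumor replicate 1 too, rises being at least 3 times the epithelial level. Markers and uncalled members that make a list readable are added. These called genes were chosen after their values were seen: Abca1, Bcl2l1, Bnip3, Ccnd1, Cebpb, Csf1, Ctsb, Ctsc, Cxcl10, Ddit4, Fth1, G0s2, Hif1a, Hmox1, Hspa5, Ier3, Inhba, Nfe2l2, Nfkb1, Nfkb2, Nfkbia, Nfkbie, P4ha1, Plaur, Plin2, Rel, Rela, Relb, Skil, Srxn1, Tlr2, Tnf and Tnip1.

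Alternatives were limma-voom and log2 RPKM fits (limma 3.58.1, pseudocount 1 or 0.1), DESeq2 1.42.0, RLE scaling, an unfiltered fit, a minimum of 10 counts in each library, omission of mitochondrial genes, a joint fit of the 40 libraries, a replicate block, a fit without the fold threshold, and omission of each library. Omission of tumor replicates 1 and 2 together was chosen after seeing the data.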

Additional observations from a re-analysis of the deposited data

Results flagged for a closer look

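For each named gene, marker list and library total, the gap between the most extreme of the 4 libraries of a group and its nearest neighbor was divided by the range of the group. Of 416 groups of 4 values, 55 exceeded Dixon's 95% critical value. By chance about 1 in 20 would pass if the values were normally distributed. RPKM entered without a logarithm, so that rate need not hold here, and values of genes in the same library are not independent.

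Tumor replicate 1 was the highest of its group with ratios of 0.831 for Ccn1, 0.857 for F11r, 0.912 for Fn1, 0.896 for H2-Eb1, 0.875 for Hspa1b, 0.881 for Hsph1, 0.832 for Itgb1, 0.949 for Maff, 0.839 for Mmp14, 0.836 for Srxn1, 0.830 for the summed RPKM of erythroid markers and 0.877 for the summed RPKM of monocyte markers. It was the lowest with ratios of 0.870 for Csf3r and 0.878 for Mcl1. Tumor replicate 2 was the highest of its group with ratios of 0.934 for Bcl2a1b, 0.980 for Ccl2, 0.963 for Ccl3, 0.858 for Cd274, 0.836 for Csf1, 0.910 for Cxcl1, 0.861 for Cxcl9, 0.903 for Egr1, 0.968 for Isg15, 0.841 for Pfkl, 0.867 for Ptgs2, 0.912 for Tnfaip3 and 0.838 for Txnrd1. It was the lowest with ratios of 0.886 for Tgfbr1 and 0.862 for the summed RPKM of macrophage and dendritic cell markers. Tumor replicate 4 was the highest of its group with a ratio of 1.00 for Elane.

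Blood replicate 1 was the highest of its group with ratios of 0.901 for Adora2b, 1.00 for C1qb, 0.831 for Fasn, 0.993 for Il1f6, 0.864 for Il1r2, 0.911 for Il23a and 0.992 for Mpo. It was the lowest with a ratio of 0.926 for Slc40a1. Blood replicate 2 was the highest of its group with ratios of 0.935 for Gpnmb, 0.876 for Id3, 0.849 for Pmepa1 and 0.831 for Serpinb2. It was the lowest with a ratio of 0.892 for Plin2. Blood replicate 3 was the highest of its group with ratios of 0.900 for Ccl4, 0.899 for S100a8, 0.851 for Traf1 and 0.904 for mt-Nd1. It was the lowest with ratios of 0.943 for Hspa1a, 0.854 for Nfkb1, 0.874 for S100a9 and 0.843 for Txnrd1. Blood replicate 4 was the highest of its group with ratios of 0.974 for Nr4a3, 0.872 for Pfkl, 0.932 for Spp1 and 0.941 for Tnip3. Several of the blood values concern genes near 0 there, such as C1qb, Il1f6, Tnip3 and Mpo, where a single library with a few reads sets the ratio.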

How the results depend on the processing

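All 8 libraries gave 2229 calls, 1626 higher and 603 lower. Leaving out 1 library at a time gave 1638 to 3624 calls, 1263 to 2525 higher and 375 to 1099 lower, most without tumor replicate 2. Without tumor replicates 1 and 2, 2194 genes were called higher and 922 lower. At least 10 counts in every library gave 1270 calls, 871 higher and 399 lower, among 7194 genes tested. The edgeR fit of all 40 libraries gave 5995, 4353 and 1642, and limma on log2(RPKM + 1) gave 683, 424 and 259. DESeq2 called 2119 higher and 1097 lower, limma-voom 1367 and 886, and limma on log2(RPKM + 0.1) 1255 and 857. Fewer genes were tested at 10 counts in every library, and the cause of the other differences was not tested.

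The replicate numbers did not pair the samples. Same-numbered tumor and blood libraries carry different animal numbers in their titles. Deviations of same-numbered tumor and blood libraries correlated at 0.114, -0.0691, -0.0268 and -0.0359 for numbers 1 to 4, and 1 of 4 numbers matched its own best. With the replicate number as a block, 1407 genes were called, 1031 higher and 376 lower. Of the 167 called genes named in the text, 143 kept their call under the block.

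No named gene that was called with all 8 libraries or in an alternative had the opposite direction in the other fit. Of the 167 called genes, 108 kept their call in every alternative that tested them, and 131 in each of the 8 fits without 1 library. The median log2 fold change of all genes was 0.11 with TMM, 0.07 with RLE size factors and -0.15 in limma-voom. Il1b, Il1r2 and Tlr4 were called higher without tumor replicate 1 but not with it. The other 36 called genes lost their call without at least 1 library, and for each the log2 fold change nearest 0 and the largest edgeR adjusted p over the 8 fits are given. Adam19 lost it without tumor replicate 1, 3 or 4 or any blood library (log2 fold change -1.41, adjusted p 0.0932). Atp5a1 lost it without tumor replicate 1 or 2 or any blood library (log2 fold change 1.35, adjusted p 0.0825). Atp5d lost it without tumor replicate 1, 2 or 3 or any blood library (log2 fold change 1.36, adjusted p 0.127). Bnip3 lost it without tumor replicate 3 or 4 or any blood library (log2 fold change 1.43, adjusted p 0.116). Ccl2 lost it without tumor replicate 2 or any blood library (log2 fold change 1.65, adjusted p 0.0757). Ccl4 lost it without blood replicate 1, 2 or 4 (log2 fold change 3.52, adjusted p 0.0794). Ccnd1 lost it without tumor replicate 1, 3 or 4 or any blood library (log2 fold change 2.59, adjusted p 0.158). Cebpb lost it without tumor replicate 3 or 4 or blood replicate 2, 3 or 4 (log2 fold change 1.61, adjusted p 0.0901). Chil3 lost it without tumor replicate 1 or any blood library (log2 fold change -3.28, adjusted p 0.0691). Col1a1 lost it without blood replicate 1, 2 or 4 (log2 fold change 2.46, adjusted p 0.0570). Col3a1 lost it without blood replicate 1, 3 or 4 (log2 fold change 2.51, adjusted p 0.0536). Ctsc lost it without tumor replicate 3 or 4 or blood replicate 1 or 3 (log2 fold change 1.42, adjusted p 0.0649). Cxcl9 lost it without blood replicate 1, 2 or 3 (log2 fold change 3.03, adjusted p 0.0573). Cysltr1 lost it without tumor replicate 1 or 3 or any blood library (log2 fold change 2.89, adjusted p 0.0956). Ddit4 lost it without blood replicate 1, 2 or 4 (log2 fold change 2.07, adjusted p 0.0602). H2-Aa lost it without blood replicate 1 or 2 (log2 fold change 3.31, adjusted p 0.0542). Hgf lost it without tumor replicate 3 or 4 or blood replicate 1, 2 or 3 (log2 fold change -1.51, adjusted p 0.0777). Hk2 lost it without tumor replicate 2 (log2 fold change 1.36, adjusted p 0.0467). Ier3 lost it without tumor replicate 2 or any blood library (log2 fold change 1.12, adjusted p 0.0898). Il1r1 lost it without tumor replicate 4 or blood replicate 1, 2 or 4 (log2 fold change 2.59, adjusted p 0.0906). Isg15 lost it without blood replicate 1, 2 or 3 (log2 fold change 1.96, adjusted p 0.0563). Klf13 lost it without tumor replicate 1 or blood replicate 1 (log2 fold change -1.41, adjusted p 0.0463). Lyz2 lost it without any tumor library or any blood library (log2 fold change -1.31, adjusted p 0.104). Man2b1 lost it without tumor replicate 1 or 2 or blood replicate 2, 3 or 4 (log2 fold change -1.28, adjusted p 0.0658). Mcm3 lost it without tumor replicate 1 or blood replicate 1, 2 or 3 (log2 fold change 4.11, adjusted p 0.0921). P4ha1 lost it without blood replicate 1, 2 or 3 (log2 fold change 1.73, adjusted p 0.0672). Pfkfb3 lost it without tumor replicate 2 or 4 or blood replicate 1, 3 or 4 (log2 fold change 1.34, adjusted p 0.0637). Pfkfb4 lost it without blood replicate 3 (log2 fold change -1.72, adjusted p 0.0538). Pmaip1 lost it without blood replicate 1, 2 or 4 (log2 fold change 2.16, adjusted p 0.0840). Ptger1 lost it without blood replicate 4 (log2 fold change -1.72, adjusted p 0.0534). Ptgs1 lost it without tumor replicate 1 or 4 or any blood library (log2 fold change -1.58, adjusted p 0.115). Ptgs2 lost it without blood replicate 1, 2 or 3 (log2 fold change 2.83, adjusted p 0.0669). Slc2a1 lost it without tumor replicate 2 or blood replicate 1, 2 or 3 (log2 fold change 1.47, adjusted p 0.0630). Tlr2 lost it without tumor replicate 3 or 4 or any blood library (log2 fold change 1.57, adjusted p 0.0928). Tlr5 lost it without blood replicate 2 or 3 (log2 fold change -1.66, adjusted p 0.0578). Vsir lost it without blood replicate 3 (log2 fold change -1.63, adjusted p 0.0574).

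Genes with 3 or fewer counts in each blood library, such as Il1f6, Tnip3 and C1qb, have fitted changes that depend on the prior count, and no fold is given for them.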

Other observations

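Several patterns in single libraries were noticed after the values had been seen and are given without a test. The 2 chains of calprotectin, the most abundant protein of the neutrophil cytosol, did not keep 1 ratio. S100a8 over S100a9 in RPKM was 0.290, 2.56, 0.363 and 0.354 in tumor replicates 1 to 4 and 0.491, 0.492, 9.52 and 0.430 in blood replicates 1 to 4. Tumor replicate 2 and blood replicate 3 thus stood apart from the other 6 libraries, which lay between 0.290 and 0.492. S100a8 was at 385, 3385, 2846 and 2583 RPKM in tumor and 4798, 5096, 14922 and 3988 RPKM in blood. S100a9 was at 1328, 1324, 7849 and 7290 RPKM in tumor and 9782, 10369, 1568 and 9264 RPKM in blood. Neither chain passed the test (log2 fold change -1.46, edgeR adjusted p = 0.219 for S100a8 and log2 fold change -0.78, edgeR adjusted p = 0.493 for S100a9). The same 2 libraries also had the fewest genes with at least 10 counts in their group, 9641 and 11422.

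Siglecf, the lectin that marks eosinophils and a subset of tumor neutrophils, was at 0.721, 2.74, 1.77 and 2.63 RPKM in tumor and 1.34, 1.28, 1.99 and 1.73 RPKM in blood, with overlap (log2 fold change 0.49, edgeR adjusted p = 0.589). Gpnmb, a glycoprotein of myeloid cells, was at 0.758, 2.19, 1.15 and 0.511 RPKM in tumor and 0.00751, 0.102, 0.000924 and 0.00555 RPKM in blood, and was called higher with no overlap (log2 fold change 5.68, edgeR adjusted p = 0.0132). Nectin2, a ligand of the inhibitory receptor PVRIG, was at 1.89, 6.897, 0.222 and 0.142 RPKM in tumor and 0.0485, 0.0598, 0.0131 and 0.0129 RPKM in blood. It was called higher (log2 fold change 6.58, edgeR adjusted p = 0.01098), with tumor replicates 1 and 2 above replicates 3 and 4 and 3.47 ± 0.893 RPKM in sorted tumor epithelial cells.

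Srxn1, the antioxidant enzyme sulfiredoxin, was at 4.31, 2.996, 3.21 and 3.07 RPKM in tumor and 0.309, 0.4703, 0.317 and 0.143 RPKM in blood, and rose with no overlap (log2 fold change 3.52, edgeR adjusted p = 0.00111). Inhba, a chain of activin A, was at 10.2, 9.27, 9.83 and 9.31 RPKM in tumor and 3.16, 2.67, 1.83 and 2.11 RPKM in blood, and rose with no overlap (log2 fold change 2.08, edgeR adjusted p = 0.00253). Its 4 tumor levels lay between 9.27 and 10.2 RPKM.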
